A study of Mus musculus with 3 samples.

Results

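The 10 renal progenitor genes described here are the paired-box factors Pax2 and Pax8, the SRY-box factors Sox9 and Sox4, the surface proteins Prom1 (CD133), Cd24a, Vcam1, Ncam1 and Cd44, and the secreted ligand Wnt4. They were taken by gene symbol from the gene tables of 3 single-cell libraries of mouse glomeruli, where all 10 were present among 31058 genes. Each library came from 1 healthy C57Bl/6 mouse. The libraries were a female labelled RPC-ERαKO, whose genotype was Pax2.rtTA;TetO.Cre;R26.Confetti;ERalphaKO (called female ERaKO), and a male with the genotype Pax2.rtTA;TetO.Cre;R26.Confetti. Both were set against a female with the same genotype as the male. All 3 mice thus carried a reverse tetracycline transactivator driven by Pax2 sequences, a tetracycline-dependent Cre and the multicolour Confetti reporter. Each was given doxycycline at 20 days of age, with tracing up to 90 days. One of the 10 genes, Pax2, is therefore also the gene whose regulatory sequence drives the labelling.

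Parietal epithelial cells line Bowman's capsule and face the podocytes, the cells that hold the filtration barrier, across the urinary space. A subset of parietal cells is known as renal progenitors, recognised in human kidney by CD133 and CD24 on the cell surface. Pax2 and Pax8 act early in the kidney lineage and are kept by parietal and collecting duct cells, whereas podocytes switch Pax2 off as they mature. Wnt4 starts the conversion of mesenchyme to epithelium in the developing nephron, and CD44 is known from parietal cells that have been activated by injury.

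The sequence upstream of the start site is shown for 3 of the genes. Pax2 and Pax8 had the most similar levels over cell classes of any pair among the 10, and Wnt4 was the single member that was higher in podocytes than in parietal cells. The RefSeq promoter table for GRCm38.p6 matched 6 of the 10 members. It lists 2 start sites for Pax2, of which the downstream one is shown. Only bases upstream of the annotated starts are given, 5′ to 3′ on the gene's strand, and capitals mark matches on either strand to a CCAAT box (the letters CCAAT), to the GC box searched as GGGCGG, or to a TATA box searched as TATAAA.
Pax2 (chr19:44755502-44755751, plus strand): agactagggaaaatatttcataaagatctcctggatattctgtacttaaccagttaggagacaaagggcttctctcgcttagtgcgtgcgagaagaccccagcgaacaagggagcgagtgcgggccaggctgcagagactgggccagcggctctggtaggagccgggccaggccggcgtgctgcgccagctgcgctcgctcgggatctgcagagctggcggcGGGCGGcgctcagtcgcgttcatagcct
Pax8 (chr2:24475600-24475849, minus strand): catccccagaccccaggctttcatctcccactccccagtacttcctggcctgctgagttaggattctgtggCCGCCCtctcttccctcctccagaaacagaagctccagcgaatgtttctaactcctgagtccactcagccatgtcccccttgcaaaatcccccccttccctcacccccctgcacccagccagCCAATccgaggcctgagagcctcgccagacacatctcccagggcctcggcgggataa
Wnt4 (chr4:137277385-137277488, plus strand): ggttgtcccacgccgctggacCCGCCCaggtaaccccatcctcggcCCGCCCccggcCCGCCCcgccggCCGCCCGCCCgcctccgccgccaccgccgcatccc
The Pax2 window held 1 GC box, 60.8% G and C, and 20 CpG pairs, and the Pax8 window held 1 GC box, 1 CCAAT, 60.4% G and C, and 6 CpG pairs. Over all promoters, the same window of 250 bases held a GC box in 32.7%, CCAAT in 33.8% and TATAAA in 12.4%, with a median of 52.4% G and C and 6 CpG pairs. The Wnt4 window of 104 bases held 5 GC boxes, of which 2 overlap each other, and 83.7% G and C with 16 CpG pairs. A window of that length held a GC box in 11% of promoters, and its median was 50% G and C with 2 CpG pairs. None of the 3 windows held TATAAA. The Pax8 window lies inside Gm13415, a gene model on the opposite strand. The matches describe letters in these windows and no binding.

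The libraries held 3986 barcodes (female ERaKO), 4244 (male) and 3555 (female), with 47522141 (ERaKO), 44585342 (male) and 44942380 (female) unique molecular identifiers (UMIs). After removal of barcodes with fewer than 500 genes or over 25% mitochondrial UMIs and of called doublets, 2520 (ERaKO), 3224 (male) and 2828 (female) cells were left. The mitochondrial limit was exceeded by 34.0% (ERaKO), 21% (male) and 17.7% (female) of barcodes. Clusters were named from marker lists that hold none of the 10 genes, and a name such as parietal cell or podocyte stands for a cluster that resembles that type. The parietal cluster showed all 9 markers of its list and was led by Msmp, Wnt16, Lbp and Cp, and Ncam1, one of the 10 genes, was also among its 10 leading genes. It held 213 female ERaKO cells (8.45% of the library), 122 male cells (3.78%) and 76 female cells (2.69%), with median depths of 11930 (ERaKO), 9324.5 (male) and 9015 UMIs (female). Podocytes numbered 799 (ERaKO), 1183 (male) and 1376 (female). Markers of other types were also found in parietal cells: the 10 podocyte markers summed to 884 (ERaKO), 764 (male) and 803 UMIs (female) per 1000000 UMIs of the class (CPM), and the smooth muscle and renin list to 4512 (ERaKO), 1307 (male) and 1760.4 CPM (female). Between 4 and 8 barcodes were shared by each pair of libraries as deposited, and between 1 and 4 among the cells kept. Esr1, which encodes ERα, had UMIs in 5 of 213 (ERaKO), 4 of 122 (male) and 0 of 76 (female) parietal cells. The count of 0 allows a share of cells with an Esr1 UMI of up to 3.95%, for counting error only, and sets no limit on cells that express the gene. In proximal tubule cells, Esr1 was found in 15.5% (ERaKO), 5.78% (male) and 5.65% (female) of cells, in smooth muscle and renin cells in 10.1% (ERaKO), 10.4% (male) and 13.9% (female) and in endothelial cells in 1.83% (ERaKO), 1.29% (male) and 2.20% (female). The ERaKO share was thus the highest in 1 of these classes and below the female share in the other two. Which part of Esr1 was deleted is not given in the labels, and tags outside it check nothing, so the genotype could not be read from these counts. Levels below are CPM of the UMIs summed over a class in 1 library. In lists of values, ERaKO, male and female in brackets name the library.

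Among the transcription factors, Pax2 (chr19:44756045-44837871, plus strand, GRCm38) had 119 (ERaKO), 147 (male) and 101 CPM (female) in parietal cells, from 501 (ERaKO), 276 (male) and 104 UMIs (female). Principal cells of the collecting duct had 146 (ERaKO), 172 (male) and 122 CPM (female) and intercalated cells 74.3 (ERaKO), 96.9 (male) and 144 CPM (female), so the ranges of these 3 classes overlapped. Proximal tubule cells were lower, at 31.2 (ERaKO), 44.2 (male) and 33.4 CPM (female). Podocytes had 0.138 (ERaKO), 0.369 (male) and 0.124 CPM (female), which came from 1 (ERaKO), 4 (male) and 2 UMIs (female). No Pax2 UMI was found in T and NK cells or in mononuclear phagocytes.

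Pax8 (chr2:24420560-24475599, minus strand), a paralogue that acts with Pax2 in nephric specification, was highest in parietal cells, with 235 (ERaKO), 261 (male) and 234 CPM (female). The next class was cluster 21, an unnamed cluster led by Col6a1, Coch and Ogn, at 175 (ERaKO), 193 (male) and 212 CPM (female), and its range lay below that of parietal cells. Principal cells followed at 123 (ERaKO), 109 (male) and 136 CPM (female). It was also found in tubule, with 107 (ERaKO), 109.7 (male) and 87.2 CPM (female) in proximal tubule cells. In podocytes it had 8.14 (ERaKO), 9.04 (male) and 8.46 CPM (female), and this range lay above that of endothelial cells, at 2.38 (ERaKO), 2.02 (male) and 1.02 CPM (female). Cluster 7, an unnamed cluster with podocyte markers, was not counted among the podocytes and had 63.9 to 96.4 CPM over the libraries.

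Sox9 (chr11:112782224-112787760, plus strand), a factor of nephron repair, was low in parietal cells, at 21.3 (ERaKO), 42.0 (male) and 36.0 CPM (female) from 90 (ERaKO), 79 (male) and 37 UMIs (female). Proximal tubule cells had 29.4 (ERaKO), 84.3 (male) and 19.6 CPM (female), and the ranges of both classes overlapped. Sox4 (chr13:28948919-28953713, minus strand), a factor needed in nephron progenitors, had 522 (ERaKO), 455 (male) and 299 CPM (female) in parietal cells. The thick ascending limb had 375 (ERaKO), 366 (male) and 425 CPM (female), a range inside the parietal one. Sox4 was also found outside epithelia, with 122 (ERaKO), 80.6 (male) and 67.0 CPM (female) in endothelial cells and 193 (ERaKO), 139 (male) and 192 CPM (female) in mesangial cells.

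Of the surface proteins, Prom1 (chr5:43993620-44102032, minus strand), a pentaspan membrane protein, had only 24.6 (ERaKO), 41.0 (male) and 22.4 CPM (female) in parietal cells, from 104 (ERaKO), 77 (male) and 23 UMIs (female). It was higher in the thick ascending limb, at 119 (ERaKO), 76.5 (male) and 110 CPM (female), and in proximal tubule cells, at 73.4 (ERaKO), 63.9 (male) and 73.8 CPM (female). Cd24a (chr10:43578284-43584265, plus strand), a small anchored glycoprotein, had 317 (ERaKO), 421 (male) and 301 CPM (female) in parietal cells. It was highest in endothelial cells, at 781 (ERaKO), 823 (male) and 924 CPM (female), and also exceeded its parietal level in principal cells, at 598 (ERaKO), 521 (male) and 663 CPM (female). Neither gene of the CD133 and CD24 pair was thus highest in the parietal cluster.

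Ncam1 (chr9:49502136-49798925, minus strand), an adhesion molecule of developing nephrons, had 950.4 (ERaKO), 868 (male) and 781 CPM (female) in parietal cells and the clearest order of classes. Cluster 21 followed at 559.7 (ERaKO), 634 (male) and 557 CPM (female). Cluster 7, an unnamed cluster with podocyte markers together with Cst12, Igfbp6 and Dkk3, had 165 (ERaKO), 147 (male) and 126 CPM (female), and podocytes had 88.2 (ERaKO), 70.8 (male) and 68.1 CPM (female). None of these 4 ranges overlapped the next. Since Ncam1 is among the leading genes of the parietal cluster, this order is a description.

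Vcam1 (chr3:116109949-116129688, minus strand), an adhesion molecule for leukocytes, had 221 (ERaKO), 113 (male) and 202 CPM (female) in parietal cells. Mesangial cells had 166 (ERaKO), 143 (male) and 232 CPM (female) and proximal tubule cells 232 (ERaKO), 114 (male) and 116 CPM (female), and the 3 ranges overlapped. Cd44 (chr2:102811141-102901665, minus strand), the hyaluronan receptor, was at 10.9 (ERaKO), 11.7 (male) and 33.1 CPM (female) in parietal cells. It belonged mainly to leukocytes, with 365 (ERaKO), 559 (male) and 478 CPM (female) in mononuclear phagocytes and 42.9 (ERaKO), 22.0 (male) and 69.8 CPM (female) in T and NK cells. The C1qa, C1qb and C1qc transcripts of macrophages were at 0 in parietal cells. The other markers of the phagocyte list, Csf1r, Lyz2, Adgre1, Cx3cr1 and Ms4a7, are not described here. The part of leukocyte RNA in the parietal Cd44 level was not tested.

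Wnt4 (chr4:137277489-137299726, plus strand) differed from the other 9 genes in that its level was lower in parietal cells than in podocytes. Parietal cells had 17.3 (ERaKO), 22.3 (male) and 17.5 CPM (female) and podocytes 80.7 (ERaKO), 75.8 (male) and 67.2 CPM (female). Cluster 7 had 54.1 (ERaKO), 82.0 (male) and 69.8 CPM (female) and cluster 21 had 194 (ERaKO), 64.3 (male) and 21.2 CPM (female), the last from 4 UMIs, so the podocyte range overlapped those of both unnamed clusters. Principal cells had less than podocytes and more than parietal cells in each library, at 46.0 (ERaKO), 46.0 (male) and 49.9 CPM (female). Pax8, Prom1, Sox4, Vcam1 and Ncam1 each share exon bases with a gene model on the opposite strand, and whether counting used strand is not given in the sources used here.

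**Figure D1:**
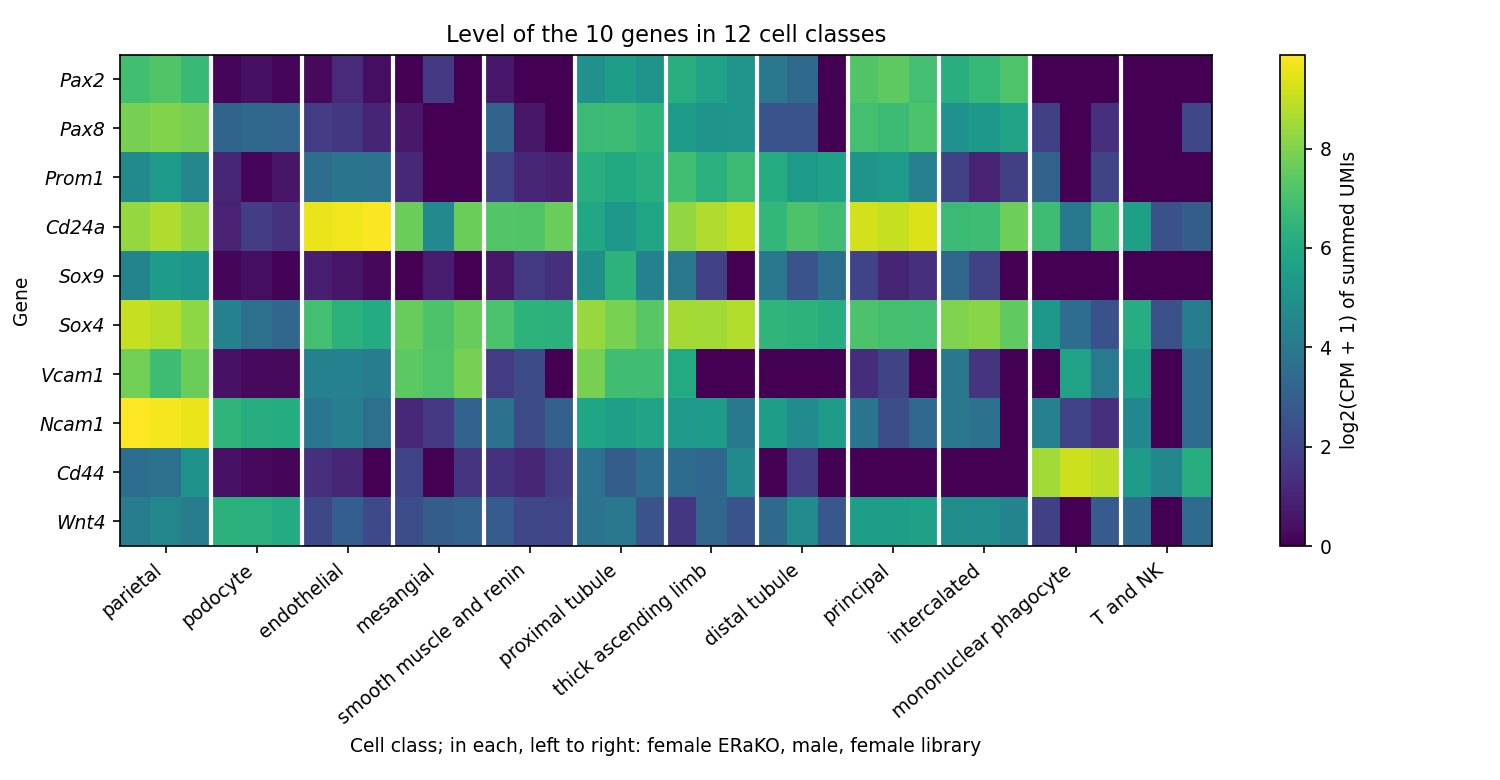
Levels of the 10 genes by cell class and library, as log2(CPM + 1) of summed UMIs, with classes in columns and the 3 libraries of each class side by side. Pax8 and Ncam1 are highest in parietal cells of all 3 libraries, Cd24a in endothelial cells (781 to 924 CPM) and Cd44 in mononuclear phagocytes.

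Part of the proximal tubule signal sat in 1 cluster. Cluster 11 met the naming rule for proximal tubule with the parietal list second, and whether it is tubule or parietal was not settled. It held 94 (ERaKO), 78 (male) and 39 (female) cells, was led by Cpn1, C3, Gc and Ugt2b37, and had 1689 (ERaKO), 886 (male) and 1062 (female) CPM of the summed parietal markers beside 4043 (ERaKO), 9772 (male) and 6328 (female) CPM of the proximal tubule markers. Its Vcam1 level was 565 (ERaKO), 189.9 (male) and 291 CPM (female), and it held 1145 of the 1146 (ERaKO), 364 of the 365 (male) and 316 of the 319 (female) Vcam1 UMIs of proximal tubule cells. For Sox4 these counts were 1613 of 1623 (ERaKO), 765 of 767 (male) and 438 of 441 (female), and for Sox9 they were 144 of 145 (ERaKO), 269 of 269 (male) and 54 of 54 (female). The proximal tubule levels of these 3 genes are thus those of cluster 11. Its Sox4 level was 797 (ERaKO), 399 (male) and 404 CPM (female), and its Sox9 level was 71.1 (ERaKO), 140.3 (male) and 49.8 CPM (female). Its Prom1 level was 109 (ERaKO), 105 (male) and 100.4 CPM (female), above the parietal level in each library. Its Pax2 level, 65.7 (ERaKO), 62.6 (male) and 66.4 CPM (female), was below that of parietal cells in each library. Its cells had 2.29 times the median depth of their library, and the part of depth in these levels was not tested.

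Within libraries, 9 of the 10 genes were higher in parietal cells than in podocytes in all 3 libraries, and 46.6% of the 11044 genes with at least 20 summed UMIs in each library did the same. Wnt4 was lower in all 3, as were 29.3% of genes. Pax2, Prom1, Cd24a, Sox9, Vcam1 and Cd44 had fewer than 20 podocyte UMIs in at least 1 library, so they met that minimum there only through parietal UMIs. Their direction was thereby given, and nothing is read from the count of 9. Wnt4 had 18 parietal UMIs in the female library and met the minimum there only through podocyte UMIs. Nothing is read from its direction either. Pax8, Sox4 and Ncam1 had at least 20 UMIs in both classes of each library. The largest ratios, on the log2(CPM + 1) scale as mean ± SD over the 3 libraries (n = 3), were those of Vcam1 at 7.10 ± 0.45, Cd24a at 7.02 ± 0.28 and Pax2 at 6.66 ± 0.13. Sox4 had 4.94 ± 0.26, Sox9 4.83 ± 0.46, Pax8 4.68 ± 0.04, Prom1 4.28 ± 0.87, Cd44 3.81 ± 0.98 and Ncam1 3.50 ± 0.09, and Wnt4 had -1.92 ± 0.22. For Pax8, Sox4 and Ncam1 the exact two-sided sign-flip permutation test over the libraries gave p = 0.25, the smallest that 3 libraries allow, so the design cannot reach 0.05. The scale understates ratios of genes near 0 in podocytes.

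The ratios of Pax8 and Ncam1 varied least between the libraries. In parietal cells against podocytes, the fold of Pax8 was 28.8 (ERaKO), 28.9 (male) and 27.7 (female) and that of Ncam1 was 10.8 (ERaKO), 12.3 (male) and 11.5 (female). Wnt4 was lower by a fold of 4.67 (ERaKO), 3.39 (male) and 3.84 (female). Pax2 was 860-fold higher in the female ERaKO library with a counting interval of 154 to 34053, 398-fold in the male (154 to 1470) and 813-fold in the female (219 to 6802), where the width comes from the 1 to 4 podocyte UMIs. Regulators of nephrogenesis that are not members went both ways: Emx2 (mean log2 ratio 4.94) and Sall1 (1.55) were higher in parietal cells in all 3 libraries, and the podocyte factor Wt1 (-2.61) and the ligand Bmp7 (-1.67) were lower. Of the genes of activated parietal and scattered tubular cells, Spp1 (7.38), Krt8 (6.12), Krt18 (5.47), Cd9 (4.74) and S100a6 (4.14) were higher in parietal cells, and Vim was lower (-1.38). Emx2, Krt8 and Krt18 also had fewer than 20 podocyte UMIs in at least 1 library, and Bmp7 had fewer than 20 parietal UMIs in the female library.

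**Figure D2:**
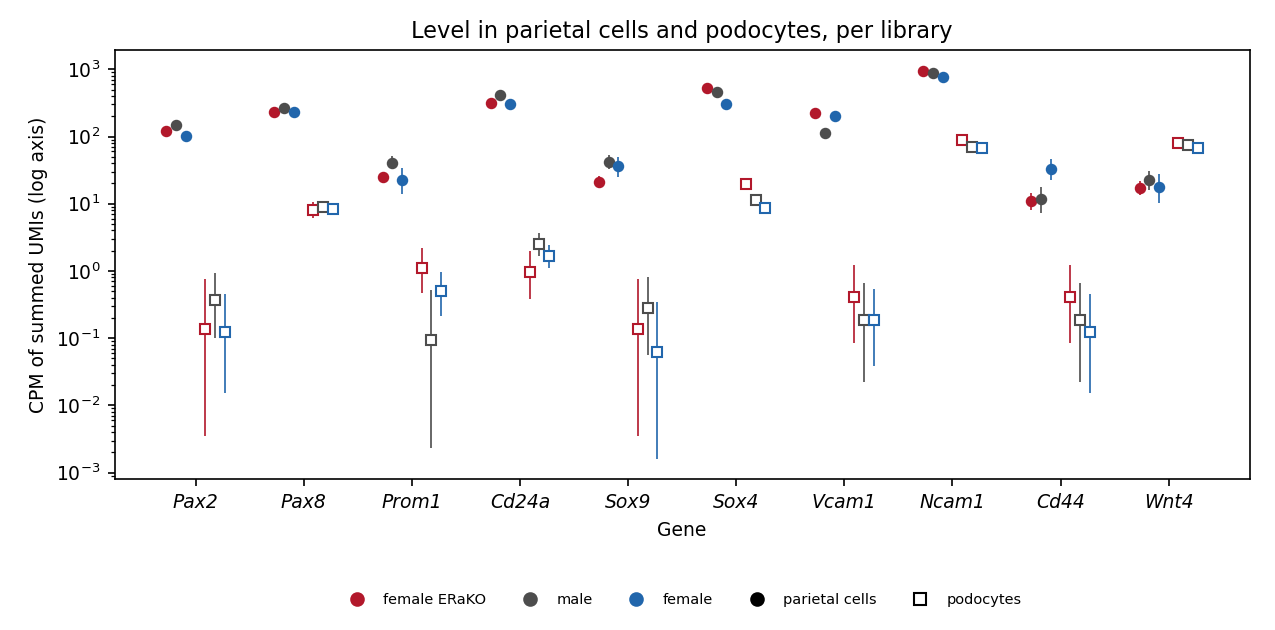
CPM of each gene in parietal cells and in podocytes of each library, on a log axis, with exact 95% Poisson intervals that cover counting error only. The parietal points lie above the podocyte points for 9 genes, and Wnt4 is reversed (17.3 to 22.3 CPM in parietal cells, 67.2 to 80.7 CPM in podocytes).

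Differences between libraries were examined next within parietal cells. With 1 mouse a library there is no test of sex or genotype, and both comparisons share the female library. All 10 genes had at least 20 summed UMIs in both comparisons. In female ERaKO over female, 1 gene was at least 1.5-fold higher and 2 were at least 1.5-fold lower, against 10.7% and 6.44% of the 11154 genes measured. The median log2 ratio of the members was 0.10, beside 0.05 for all genes. In male over female, 2 were higher and 2 lower, against 11.6% and 5.26% of 10095 genes, and the median was 0.28 beside 0.08.

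Sox4, at 522 CPM in female ERaKO and 299 CPM in female parietal cells, had a log2 ratio of 0.80 (95% counting interval 0.63 to 0.98). In the male library it had 455 CPM and a ratio to the female of 0.60 (0.41 to 0.80), which fell short of 1.5-fold under 5 of 13 alternatives. In podocytes Sox4 had 19.5 (ERaKO), 11.5 (male) and 8.58 CPM (female), and its log2 ratio of female ERaKO over female was 1.09 (0.83 to 1.53). The same ratio was 0.86 in endothelial cells, 1.03 in proximal tubule cells and 0.72 in smooth muscle and renin cells, and it was 0.48 in cluster 7 and 0.00 in mesangial cells. It thus passed 1.5-fold in 5 of the 7 classes that had at least 30 cells in each library and at least 20 summed Sox4 UMIs. Of the smaller classes, which were not compared, the thick ascending limb had less Sox4 in female ERaKO than in female (375 and 425 CPM). Principal cells had 138 (ERaKO), 126 (male) and 120 CPM (female) and intercalated cells 248 (ERaKO), 281 (male) and 176 CPM (female). In female ERaKO proximal tubule cells nearly all Sox4 UMIs lay in cluster 11, where the ratio was 0.98. Of all genes, 4.6% were at least 1.5-fold higher in endothelial cells, 7.96% in proximal tubule cells and 7.13% in smooth muscle and renin cells, with 7.64% in cluster 7 and 11.2% in mesangial cells. In the same parietal cells the 14 immediate early and heat shock genes summed to 13601 (ERaKO), 16627 (male) and 9754 CPM (female), and in podocytes to 6635 (ERaKO), 6447 (male) and 4583 CPM (female). The median log2 ratio of these genes, female ERaKO over female, was 0.23 in parietal cells, 0.54 in podocytes and 0.65 in mesangial cells. It was 0.10 in cluster 7, where 13 were measured, and 0.004 in proximal tubule cells. In endothelial cells it was -0.17 and in smooth muscle and renin cells -0.88. The part of these genes in the Sox4 ratio was not tested.

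Cd44 was lower than in the female library in both others, with log2 ratios of -1.52 (-2.27 to -0.92) for female ERaKO and -1.42 (-2.34 to -0.68) for male. These rest on 46 (ERaKO), 22 (male) and 34 UMIs (female), of which 45.7% (ERaKO), 68.2% (male) and 61.8% (female) were in 5 cells of each library. Sox9 was lower in female ERaKO than in female parietal cells (-0.73, interval -1.32 to -0.16), and the ratio was -0.27 when each cell was assigned to its class singly and past 1.5-fold under 10 of 13 alternatives. Male over female it was 0.22 (-0.36 to 0.83). Prom1 was higher in male than in female parietal cells (0.85, 0.19 to 1.61), with 77 male against 23 female UMIs, and the ratio was 0.09 under a stricter cell filter. Of the female Prom1 UMIs, 82.6% lay in 5 cells, against 49.4% of the male ones. Markers of the thick ascending limb, the class with most Prom1, summed to 115 (ERaKO), 118 (male) and 33.1 CPM (female) in these parietal cells, and their part in the Prom1 ratio was not tested.

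Vcam1 was lower in male than in female parietal cells, at 113 CPM in male and 202 CPM in female, with a log2 ratio of -0.84 (-1.12 to -0.56). Its female UMIs were the most unevenly spread, with 60.1% in 5 cells, against 22.1% in female ERaKO and 39.6% in male cells. Without the 5 parietal cells of each library richest in Vcam1, a setting chosen after the data were seen, the male ratio was -0.35 and the ratio of female ERaKO over female, 0.13 with all cells, was 0.86. Pax2, Pax8, Cd24a, Ncam1 and Wnt4 stayed within 1.5-fold in both comparisons. Their ratios of female ERaKO over female were 0.23 (-0.07 to 0.55), 0.00 (-0.20 to 0.21), 0.07 (-0.11 to 0.25), 0.28 (0.17 to 0.40) and -0.02 (-0.78 to 0.82) in that order. Male over female, Pax2 had 0.53 (0.21 to 0.88), Cd24a 0.48 (0.29 to 0.68), Wnt4 0.34, Pax8 0.16 and Ncam1 0.15.

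**Figure D3:**
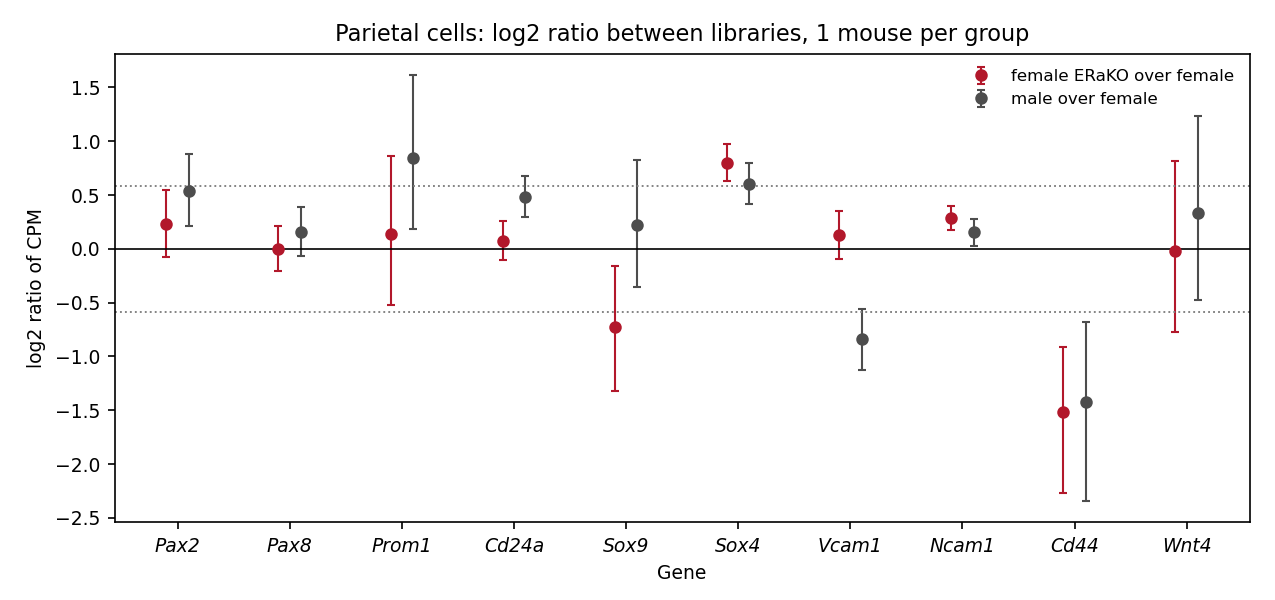
Log2 ratios of the 10 genes in parietal cells, female ERaKO over female and male over female, with 95% counting intervals and dotted lines at 1.5-fold. Sox4 lies to the higher side in both (0.80 for female ERaKO, 0.60 for male) and Cd44 to the lower side in both (-1.52 for female ERaKO, -1.42 for male).

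In podocytes 5 of the 10 genes had enough UMIs to compare. In female ERaKO over female, Sox4 alone was past 1.5-fold, with none lower, against 2.98% higher and 3.66% lower of 11376 genes. In male over female none was past 1.5-fold, against 2.07% and 1.74% of 11515 genes. Ncam1 had 88.2 (ERaKO), 70.8 (male) and 68.1 CPM (female) in podocytes and log2 ratios to the female of 0.37 (female ERaKO) and 0.06 (male). In female ERaKO over female the ratios were 0.26 for Wnt4, -0.05 for Pax8 and -0.45 for Cd24a, and in male over female they were 0.17 for Wnt4, 0.09 for Pax8 and 0.38 for Cd24a.

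Other genes of the pathway were read from 2 lists. Of 22 regulators of nephrogenesis, 11 could be compared in parietal cells of female ERaKO over female. The median log2 ratio was 0.12, with Eya1, a coactivator of nephron progenitors, at least 1.5-fold higher (12.3 CPM in ERaKO and 7.78 CPM in female, ratio 0.60) and Sox11 lower (5.21 CPM in ERaKO and 11.7 CPM in female, ratio -1.03). Lhx1 (0.55) and Bmp7 (0.42) were next highest, and Pou3f3 (-0.44) and Sall1 (-0.21) next lowest. In male over female, 12 could be compared, with a median of 0.29. Irx1 (17.0 CPM from 32 UMIs in male and 2.92 CPM from 3 UMIs in female, ratio 2.20) and Pou3f3 (33 CPM in male and 7.78 CPM in female, ratio 1.95), both factors of the distal nephron, were higher and Bmp7 (11.7 CPM in male and 18.5 CPM in female, ratio -0.62) was lower. The part of the thick ascending limb markers, which also differed between these libraries, was not tested. Eya1 had 0.47, Wt1 -0.33 and Sall1 -0.01.

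Of 12 genes of activated parietal and scattered tubular cells, 10 could be compared in each. In female ERaKO over female, 3 were higher and 3 lower, with a median of 0.10. Cd74, the invariant chain of MHC class II, had 32.7 CPM in ERaKO and 5.83 CPM in female (ratio 2.30), with Lcn2 at 0.81 and the keratin Krt18 at 0.65. S100a6 had 166 CPM in ERaKO and 502 CPM in female (-1.59), with the tetraspanin Cd9 at -0.97 and Spp1 at -0.75. In male over female, 3 were again higher and 3 lower, with a median of -0.04. Krt18 had 164 CPM in male and 45.7 CPM in female (1.82) and its partner Krt8 275 CPM in male and 114 CPM in female (1.26), with Cd74 at 0.63, and S100a6 had -1.33, Cd9 -0.96 and Vim -0.60. S100a6 and Cd9 were thus lower than in the female library in both comparisons, which share that library.

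Co-detection was read per cell. A parietal cell held UMIs of 5.93 ± 1.75 (ERaKO), 5.42 ± 1.70 (male) and 4.93 ± 2.02 (female) of the 10 genes (mean ± SD over cells of 1 library, which are not replicates). A podocyte held 1.06 (ERaKO), 0.96 (male) and 1.03 (female) and an endothelial cell 1.79 (ERaKO), 1.64 (male) and 1.58 (female). High numbers were not particular to parietal cells. A cell of cluster 11 held 6.07 (ERaKO), 5.12 (male) and 5.23 (female) and a principal cell 4.38 (ERaKO), 4.09 (male) and 4.07 (female). At least 5 members were found in 176 of 213 (ERaKO, 82.6%), 85 of 122 (male, 69.7%) and 41 of 76 (female, 53.9%) parietal cells. Parietal depth differed in the same order. After thinning every cell to 4000 UMIs, which removed no cell, the parietal means were 3.93 (ERaKO), 3.81 (male) and 3.20 (female) and the shares 31.5% (ERaKO), 24.6% (male) and 13.2% (female). The thinned means were 3.36 (ERaKO), 2.23 (male) and 2.56 (female) in cluster 11 and 2.45 (ERaKO), 2.09 (male) and 2.25 (female) in principal cells. Parietal cells at or above the median depth of 10411 UMIs held 6.79 (ERaKO), 6.58 (male) and 6.77 (female) members, and those below it 4.70 (ERaKO), 4.46 (male) and 3.98 (female).

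**Figure D4:**
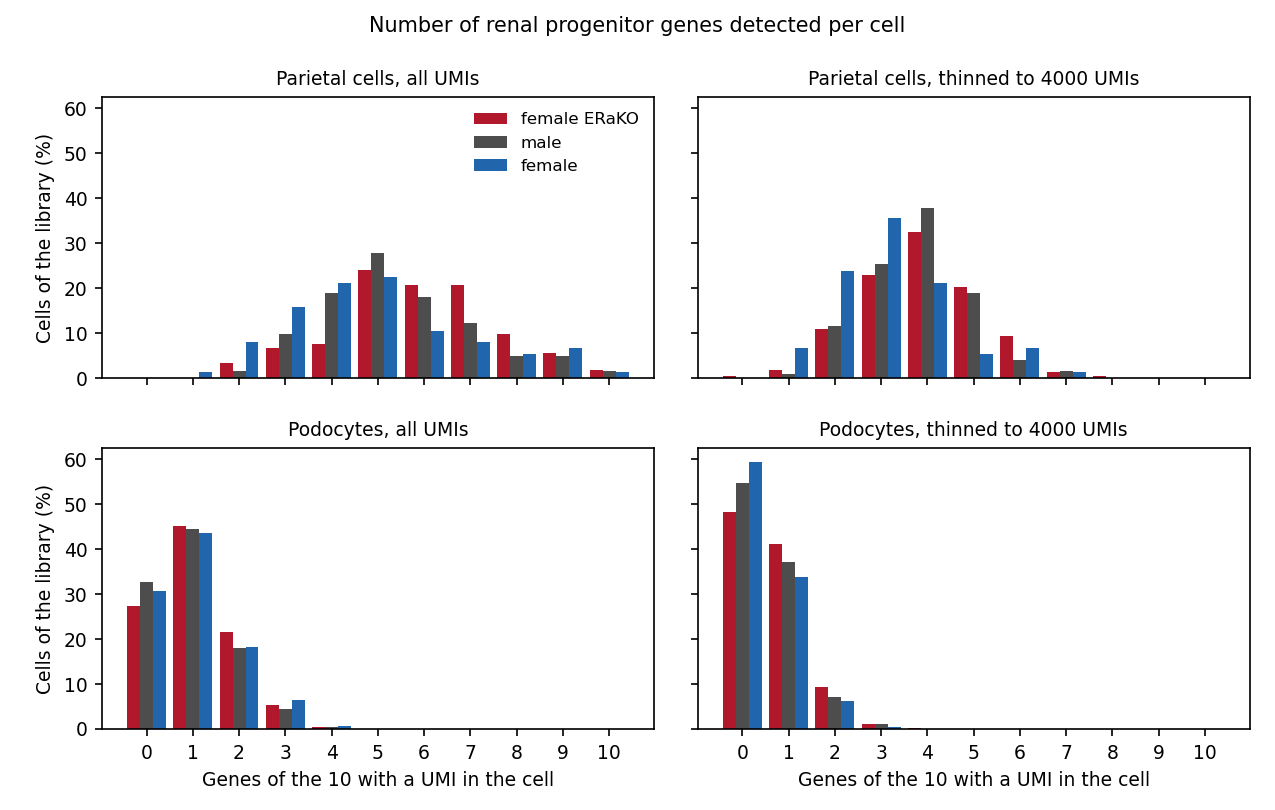
Share of cells by the number of the 10 genes with a UMI, in parietal cells and in podocytes of the 3 libraries, with all UMIs and after thinning to 4000 UMIs a cell. Parietal cells average 5.93 (ERaKO), 5.42 (male) and 4.93 (female) members with all UMIs and 3.93 (ERaKO), 3.81 (male) and 3.20 (female) after thinning, and podocytes average about 1 or fewer.

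Ncam1 was the most widely detected, in 98.6% (ERaKO), 96.7% (male) and 97.4% (female) of parietal cells and still in 94.8% (ERaKO), 91.8% (male) and 89.5% (female) after thinning. Pax2 and Pax8 were found in the same cell in 66.7% (ERaKO), 54.1% (male) and 43.4% (female) of parietal cells and in 0 (ERaKO), 1 (male) and 1 (female) podocytes. After thinning, 20.2% (ERaKO), 16.4% (male) and 13.2% (female) of parietal cells held both. Principal cells held both in 69.0% (ERaKO), 58.5% (male) and 60.7% (female), and in 16.7% (ERaKO), 9.43% (male) and 17.9% (female) after thinning. The Prom1 and Cd24a pair was found in 59 of 213 ERaKO parietal cells (27.7%, exact Clopper-Pearson interval 21.8 to 34.2%), 33 of 122 male ones (27.0%, 19.4 to 35.8%) and 9 of 76 female ones (11.8%, 5.56 to 21.3%). After thinning these shares were 4.69% (ERaKO), 5.74% (male) and 1.32% (female). UMIs of both genes were in 0 of 799 ERaKO, 0 of 1183 male and 2 of 1376 female podocytes. A count of 0 allows up to 0.38% (ERaKO) and 0.25% (male) of podocytes with UMIs of both genes, and sets no limit on podocytes that express both. The pair was in 47.9% (ERaKO), 25.6% (male) and 35.9% (female) of cluster 11 cells, and in 5.32% (ERaKO), 2.56% (male) and 2.56% (female) after thinning. In principal cells it was in 12 of 42 ERaKO (28.6%, 15.7 to 44.6%), 24 of 53 male (45.3%, 31.6 to 59.6%) and 8 of 28 female cells (28.6%, 13.2 to 48.7%). These intervals overlapped the parietal ones in each library, so no order is read from the shares. After thinning, the principal shares were 11.9% (ERaKO), 11.3% (male) and 3.57% (female), from 5 (ERaKO), 6 (male) and 1 (female) cells. Intervals here cover counting error only.

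Sox9 UMIs were found more often in parietal cells that also had Vcam1. They were in 39 of 157 Vcam1-positive and 5 of 56 Vcam1-negative female ERaKO cells, in 21 of 48 and 11 of 74 male cells, and in 15 of 32 and 1 of 44 female cells. The positive cells were deeper, with median UMIs of 14895 against 8351.5 (ERaKO), 14415 against 8654.5 (male) and 12720.5 against 8871.5 (female). After thinning, the shares were 7.6% against 5.8% (ERaKO), 16.7% against 11.2% (male) and 15% against 1.8% (female) of Vcam1-positive against Vcam1-negative cells. They rest on 7 (ERaKO), 4 (male) and 3 (female) cells with UMIs of both genes, so no order is read from them. In cluster 11, Sox9 was in 43 of 75 Vcam1-positive and 0 of 19 Vcam1-negative cells in female ERaKO, 34 of 47 and 2 of 31 in male, and 14 of 27 and 0 of 12 in female. The positive cells were deeper here too, with median UMIs of 18105 against 11793 (ERaKO), 28330 against 13123 (male) and 26671 against 11709.5 (female). After thinning, the shares were 24.2% against 9.4% (ERaKO), 54.5% against 17.9% (male) and 20% against 10.5% (female), from 15 (ERaKO), 12 (male) and 4 (female) cells with UMIs of both.

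Carry-over of the parietal genes into podocytes was set beside that in endothelial cells. As a percentage of the parietal level, podocytes had 0.12 (ERaKO), 0.25 (male) and 0.12% (female) for Pax2 and 0.19 (ERaKO), 0.16 (male) and 0.09% (female) for Vcam1, against 3.47 (ERaKO), 3.46 (male) and 3.61% (female) for Pax8 and 9.28 (ERaKO), 8.15 (male) and 8.72% (female) for Ncam1. In parietal cells there were 990 Pax8 to 501 Pax2 UMIs in female ERaKO, 491 to 276 in male and 241 to 104 in female. In podocytes there were 59 to 1 in female ERaKO, 98 to 4 in male and 136 to 2 in female. Endothelial cells had 1.01 (ERaKO), 0.77 (male) and 0.44% (female) of the parietal level for Pax8 and 1.44 (ERaKO), 2.07 (male) and 1.48% (female) for Ncam1, below the podocyte values in each library. Smooth muscle and renin cells had 3.40 (ERaKO), 0.21 (male) and 0% (female) for Pax8. The ERaKO value came from 14 UMIs and was close to that of podocytes, so Pax8 in podocytes did not stand clear of every other class there. For Ncam1 these cells had 1.26 (ERaKO), 0.44 (male) and 0.93% (female).

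**Figure D5:**
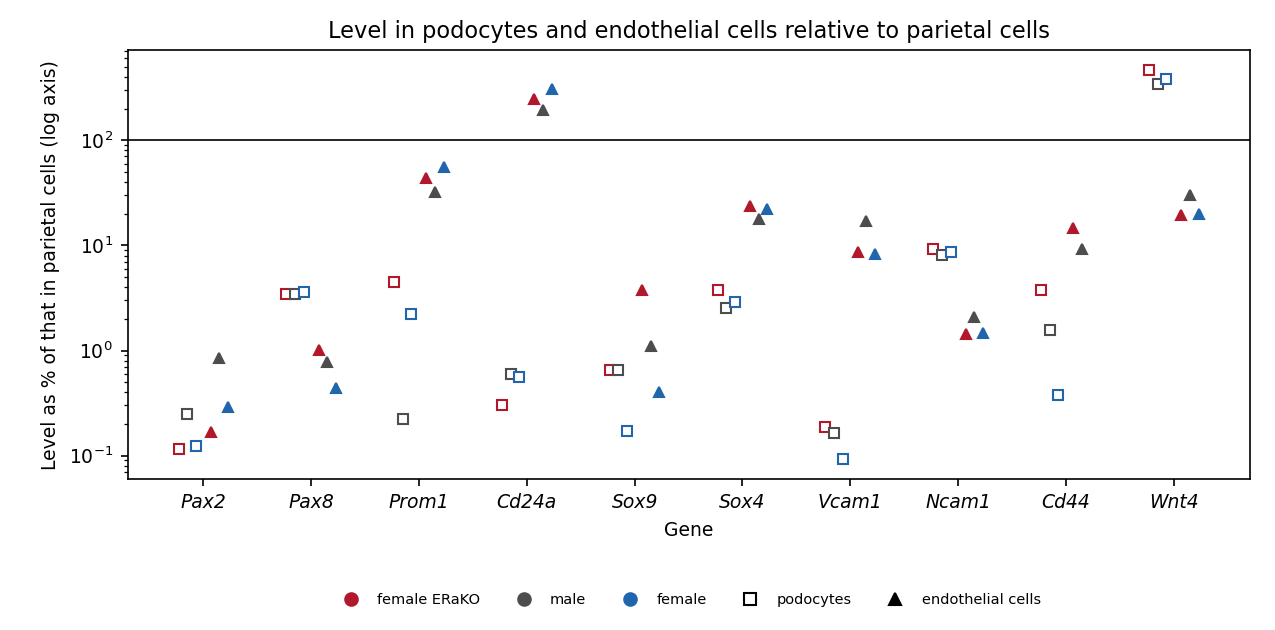
Level of each gene in podocytes and in endothelial cells as a percentage of its parietal level in the same library, on a log axis. In podocytes Pax2 and Vcam1 lie at 0.25% or less, Pax8 at about 3.5% and Ncam1 at 8.15 to 9.28%, while Wnt4 lies at 339 to 467%. The female endothelial Cd44 value is 0 and is not drawn.

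By cells, Pax8 UMIs were found in 6.51% (ERaKO), 7.86% (male) and 8.87% (female) of podocytes and in 1.63% (ERaKO), 1.16% (male) and 0.73% (female) of endothelial cells. The median depths were 7415 (ERaKO), 7792 (male) and 9195 UMIs (female) in podocytes and 8211 (ERaKO), 6004.5 (male) and 7511 UMIs (female) in endothelial cells. After thinning the shares were 3.25% (ERaKO), 3.97% (male) and 2.76% (female) of podocytes and 0.41% (ERaKO), 0.26% (male) and 0.44% (female) of endothelial cells. Ncam1 was in 47.9% (ERaKO), 41.4% (male) and 46.6% (female) of podocytes and 10.8% (ERaKO), 10.9% (male) and 8.35% (female) of endothelial cells. Pax2 was in 0.13% (ERaKO), 0.25% (male) and 0.15% (female) of podocytes and 0.20% (ERaKO), 0.78% (male) and 0.29% (female) of endothelial cells. These are 1 (ERaKO), 3 (male) and 2 (female) podocytes and 1 (ERaKO), 6 (male) and 2 (female) endothelial cells. Sox9 was in 0.13% (ERaKO), 0.17% (male) and 0.07% (female) of podocytes against 0.61% (ERaKO), 0.26% (male) and 0.15% (female). It was found in 1 (ERaKO), 2 (male) and 1 (female) podocytes and 3 (ERaKO), 2 (male) and 1 (female) endothelial cells. No order is read from such counts.

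Pax8, Sox4 and Wnt4 were uneven among the podocyte clusters. Cluster 13, with 18 (ERaKO), 41 (male) and 92 (female) cells and the growth-factor carrier Fgfbp1 among its leading genes, had a Pax8 level of 36.7 (ERaKO), 23.2 (male) and 21.9 CPM (female) from 7 (ERaKO), 8 (male) and 23 UMIs (female). The other 3 podocyte clusters ranged between 5.26 and 12.2 CPM. Cluster 13 also had more Sox4, at 31.4 (ERaKO), 40.7 (male) and 28.5 CPM (female) against at most 22.5 CPM in the other 3, and more Wnt4, at 121 (ERaKO), 119 (male) and 99.8 CPM (female) against at most 94.8 CPM. Ncam1 was not higher there in every library, with 89.1 (ERaKO), 40.7 (male) and 62.7 CPM (female) in cluster 13. At least 1 of the parietal markers Cldn1, Scin, Lad1, Serpinf1 and Cdh6 was present in 9.62% (ERaKO), 11.8% (male) and 13.9% (female) of Pax8-positive podocytes and in 6.69% (ERaKO), 7.43% (male) and 8.69% (female) of Pax8-negative ones, and the median depths were 8347.5 against 7395 (ERaKO), 7650 against 7794 (male) and 14477.5 against 9017 (female). The parietal markers used here leave out Aldh1a2, Akap12, Ctsh and Dkk3 of the list that named the class. The part of parietal RNA and of depth in the Pax8 signal was not tested.

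Mesangial cells gave a further case for 1 gene. Cd24a had 201 (ERaKO), 24.5 (male) and 204 CPM (female) there, with UMIs in 24 of 151 (ERaKO), 8 of 193 (male) and 13 of 51 (female) cells. In the same mesangial cells the 10 endothelial markers summed to 4281 (ERaKO), 2063 (male) and 4319 CPM (female), and Cd24a was highest of all in endothelial cells. The part of endothelial RNA in this difference was not tested.

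The genes most like each member were taken by the Pearson correlation of log2(CPM + 1) over 43 sums of 16 classes and 3 libraries, among 12670 genes. The sums share libraries and depth, so r is a description. Pax2 was closest to Wwc1 (r = 0.97), Slc44a4 and Emx2 (0.94 each), and Pax8 to Veph1 (0.92), Efemp1 (0.91) and Plppr4 (0.90). Sox9 was closest to Dbi (0.81), Bphl (0.78) and Sfrp5 (0.77), and Sox4 to Syne2 (0.88), Zbed3 (0.87) and Hbegf (0.86). Prom1 was closest to Phyhipl (0.88), Kcnj16 (0.86) and Kif12 (0.84), and Cd24a to Neurl1b (0.88), Galnt18 and Cd9 (0.87 each). Vcam1 was closest to Igfbp4 (0.76), Maf (0.75) and Calml4 (0.74), and Ncam1 to Svep1, Prnp (0.87 each) and Alb (0.86). Cd44 was closest to Pstpip1 (0.84), Nfil3 (0.82) and Dusp2 (0.81), and Wnt4 to Ctnnal1, Sh2d4a (0.87 each) and Epn3 (0.81). Among the members, Pax2 and Pax8 were closest (0.84), followed by Pax2 and Sox4 (0.70) and Pax8 and Wnt4 (0.61), and Cd44 and Wnt4 were farthest apart (-0.35).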

How the data were processed

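Cells of mouse glomeruli were profiled as 10x 3′ libraries on a NextSeq500, per the labels' protocols, 1 library and 1 mouse a group. The deposited values are UMI counts per gene and cell barcode, not normalized. Reads were mapped to mm10 by the authors, with Cell Ranger 6.1.2 and STAR 2.7.5a named, per the submitters' processing notes. The counting of strand is not given in the sources used here. The lowest barcode held 4284 to 5013 UMIs in the 3 libraries.

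From these counts, barcodes with fewer than 500 genes or more than 25% mitochondrial UMIs were dropped, and Scrublet (in scanpy 1.11.5) removed cells scoring over 0.2 (3.56%, 3.27% and 2.48% of cells in female ERaKO, male and female). That threshold was set after the scores were seen. Cells were clustered on 2000 variable genes, without the 10 genes and the companion lists, with 30 principal components, 15 neighbours and Leiden resolution 1 (29 clusters). A cluster was named from 1 of 18 marker lists where its score was at least 1 and led by 0.75, with at least 3 markers up 2-fold. The 3 naming limits were chosen with the clusters in view. A name was also refused where another list held more of the cluster's 10 leading genes. Cluster 7 met the 3 limits for podocytes and was left unnamed by this further rule. Its leading genes held 0 podocyte markers and 1 marker of another list. UMIs were summed per class and library and divided by the class total (CPM). Ratios used log2(CPM + 1) and 95% exact Poisson intervals of the counts, without the pseudocount. A gene was measured with at least 20 summed UMIs over the compared libraries, and 1.5-fold was the call. A count of 0 allows up to 3 counts. Gene positions are those of the GENCODE M21 annotation of GRCm38.

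All 10 members are described throughout, and of the companion lists the 3 highest and 3 lowest ratios are named. The members, lists and tests were chosen with earlier results of these data known. PCR duplicates were collapsed by UMI, and intervals cover counting error only. Alternatives covered doublets, cell filter, clustering, scaling, pseudocount, fold, depth and left-out libraries. The ratios and their intervals were tested on simulated Poisson counts of parietal cells and podocytes. The detection, co-detection and thinning steps were not tested in this way.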

Additional observations from a re-analysis of the deposited data

Results flagged for a closer look

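Vcam1, male over female, went in opposite directions in different classes. The log2 ratio was 1.68 in mononuclear phagocytes, at 51.4 CPM in male and 15.4 CPM in female cells from 34 male and 10 female UMIs. It was -0.69 in mesangial cells, at 143 CPM in male and 232 CPM in female, and -0.84 in parietal cells, at 113 CPM in male and 202 CPM in female. The difference between classes was not tested, and female ERaKO phagocytes had 0 Vcam1 UMIs.

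The 5 reporter sequences in the gene tables lie outside the 10 genes. A reporter UMI was found in 47.9% of female ERaKO, 54.9% of male and 56.6% of female parietal cells. In podocytes the shares were 11.4% (ERaKO), 18.5% (male) and 20.7% (female). In principal cells they were 90.5% (ERaKO), 69.8% (male) and 82.1% (female), and in endothelial cells 5.1% (ERaKO), 7.9% (male) and 4.8% (female).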

How the results depend on the processing

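Of 627 values recomputed under alternatives, 556 were called the same as the reported value and 71 moved. Of the 627, 30 were mean log2 ratios with 1 library left out, held to the SD over the 3 libraries. Leaving out 1 of 3 values never shifts a mean by that much, so all 30 were fixed as the same and nothing is read from them. The others were held to counting error or 1.5 times the count. Among the 390 log2 ratios no called direction reversed. The 135 counts, 36 shares and 36 mean numbers were not read for direction. The count of 9 genes higher in parietal cells than in podocytes was the same under every alternative and ranged from 9 to 9 with 1 library left out, which says nothing of stability for the 6 genes whose direction the UMI minimum fixed. No paired analysis was possible because each group is 1 library and the groups share fewer than 2 replicate numbers. Leaving out a library ends each contrast that uses it. The cause of the shifts below was not tested, except where thinning or a higher fold lowers a value by construction.

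Counts of genes past 1.5-fold moved as follows. In parietal cells of female ERaKO over female, the 1 higher gene became 2 at Leiden resolutions 0.5 and 2, with cells assigned singly, with libraries clustered separately, with automatic doublet thresholds and without the 5 Vcam1-richest cells, and 0 at 2-fold. The 2 lower became 1 at resolution 2, with cells assigned singly, with a pseudocount of 10 CPM and at 2-fold. In male over female, the 2 higher became 1 under the stricter cell filter, with the members kept for clustering, with TMM factors and without mitochondrial and ribosomal genes in the total, 4 with automatic doublet thresholds and 0 at 2-fold. The 2 lower became 1 at 2-fold and without the 5 Vcam1-richest cells. In podocytes, the 1 higher in female ERaKO became 2 under the stricter filter and at resolution 2, and the 0 higher in male became 1 at resolution 2, with separate clustering and with automatic doublet thresholds.

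The mean number of members per parietal cell was 5.62 (resolution 0.5), 5.65 (resolution 2), 5.66 (automatic doublet thresholds), 3.93 (thinned) and 4.59 (at least 2 UMIs) in female ERaKO. It was 4.87 (resolution 0.5), 5.08 (cells assigned singly), 4.76 (separate clustering), 3.81 (thinned) and 4.04 (at least 2 UMIs) in male, and 4.34 (cells assigned singly), 3.20 (thinned) and 3.58 (at least 2 UMIs) in female cells. The Prom1 and Cd24a share was 4.69% (female ERaKO), 5.74% (male) and 1.32% (female) when thinned, 11.7% in female ERaKO and 9.84% in male cells with at least 2 UMIs, and 19.2% in male cells at resolution 2. Over 13 alternatives the parietal Sox4 ratio of female ERaKO over female ranged from 0.78 to 1.0, Cd44 from -1.63 to -0.90 and Sox9 from -0.92 to -0.27. Depth limits Cd44, Wnt4, Prom1 and Sox9, with at most 104 parietal UMIs a library.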
